A study of Mus musculus with 4 samples.

Results

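The cells described here were WT bone marrow lymphocytes that carried transcripts of *Il1rl1*, which encodes the IL-33 receptor ST2, with little *Il18r1*, *Mki67* or *Cd3e*. They correspond to the ST2+ resting group 2 innate lymphoid cells (ILC2s) of the marrow. The level of a gene in a cell was written as L, the natural logarithm of 1 plus its reads per 10000 reads of that cell. A WT cell was included when L was at least 1 for *Id2* and for *Il1rl1*, and below 1 for *Il18r1*, *Mki67* and *Cd3e*. The cells were thus chosen by their measured levels of these 5 genes, whose values are given as descriptions. Of 6812 WT cells that passed the read and mitochondrial limits of the study, 3692 met the rule, and the whole series held 8663 cells before those limits.

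ILC2s are tissue lymphocytes without antigen receptors that answer IL-33, IL-25, IL-2, IL-7 and TSLP with IL-5, IL-13 and amphiregulin. They arise in the marrow from *Zbtb16*-expressing innate lymphoid cell precursors (ILCPs), and GATA3 is required for that step. Marrow ILC2s express ST2 and CD25 and are known as a largely non-dividing population whose receptors for cytokines, lipids and neuropeptides set what they can respond to.

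The sorted population was αLP, the Lin− CD127+ CD135− LPAM-1+ progenitor fraction of bone marrow, from WT mice and from G3SEKO mice, which lack tandem super-enhancers that belong to *Gata3*. Cells were barcoded with MHC class I hashtags, pooled across genotypes, captured on BD Rhapsody and amplified by TAS-Seq. Experiment 1 (strain labelled C57BL/6) had the WT hashtags A0307, A0308 and A0309, and experiment 2 had A0302. Each experiment pooled several mice, and neither the age nor a treatment is given in the labels. The labels do not say whether a hashtag marked a mouse. The p-values of the main fits, which have the experiment as a block, thus measure how differences between cell sets varied over 2 experiments. The values per hashtag show a spread that may be technical. Alternatives fitted on sums per hashtag or without experiment 2 give p-values that rest wholly or partly on this spread. By the labels and the study's methods the experiments differed in sorter and in the bones taken, and the effects of these on a difference between experiments cannot be told apart.

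The rule kept 360 of 737 WT cells in experiment 1 (48.8%, exact 95% binomial interval 45.2 to 52.5%) and 3332 of 6075 in experiment 2 (54.8%, 53.6 to 56.1%). By hashtag the share was 51.6% of 275 cells for A0307, 44.8% of 250 for A0308 and 50% of 212 for A0309. These intervals cover the counting error of cells only, and not a spread between mice. The cells of experiment 1 had a median of 359080.5 reads and 5092 detected genes, against 30526.5 reads and 1884 genes in experiment 2, and the lowest had 101860 and 6778 reads. Because of this gap in depth, shares of cells with a read are given both as counted and with every cell thinned to 6000 reads. Of the G3SEKO hashtags of experiment 1, 0 of 63 cells met the same rule, which by a limit of 3 counts allows a share of up to 4.76%.

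The *Il1rl1* level in the included cells had a median L of 2.39 in experiment 1 and 2.53 in experiment 2, and *Il18r1* had a median L of 0.0662 and 0. *Il18r1* reads were nevertheless present in 83.9% of the cells of experiment 1 and 15.6% of experiment 2. At the limits, the included cell lowest in *Il1rl1* had L = 1.02 in experiment 1, and the nearest cell outside had 0.986. In experiment 2 the nearest cell outside had 0.996. Cells within 0.1 of the *Il1rl1* limit numbered 9 of 360 and 64 of 3332. The limit on *Cd3e* removed no further cell in either experiment. The 2 genes lie side by side, *Il1rl1* at GRCm38 chr1:40429570-40465415 and *Il18r1* at chr1:40465552-40500854, both on the plus strand.

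The label ST2+ ILC2 was checked on 6 markers, of which *Il1rl1* was part of the rule. All 6 (*Il1rl1*, *Il2ra*, *Gata3*, *Rnf128*, *Ptpn13* and *Ccr9*) were at 20 reads per 1000000 reads (CPM) or more, and together they made 4680 CPM in experiment 1 and 4543 CPM in experiment 2. *Gata3* (chr2:9857078-9890034), the regulator that defines ILC2s, was at 1365, 1342, 1289 and 1029 CPM under hashtags A0307, A0308, A0309 and A0302, the order used for every set of 4 values below. Summed markers of T, NK and ILC1, LTi and ILC3, myeloid and B lineage cells were low. The 7 T cell markers summed to between 11.4 and 22.2 CPM by hashtag, the 7 NK and ILC1 markers to 6.60 to 19.3, the 6 LTi and ILC3 markers to 19.5 to 56.7, the 7 myeloid markers to 2.80 to 20.7 and the 7 B lineage markers to 23.2 to 43.8. None of these T, NK and ILC1, LTi and ILC3 or myeloid markers reached 20 CPM in both experiments, while 1 B lineage marker did, *Cd79b* at 40.2, 16, 20.7 and 35.3 CPM. The mast cell and basophil sum, 30.8 to 166 CPM, came from *Cpa3*, with 4 of the 5 measured genes under 1 CPM. The 7 erythroid genes summed to 31.8 to 78.6 CPM, mostly from the near-identical haemoglobin genes *Hba-a1* and *Hba-a2*, and *Klf1* was under 1 CPM. The erythroid sum was 10.3 CPM in both experiments in *Il18r1*+ *Il1rl1*+ cells, and its part in the results below was not tested. The 5 genes of the plasmacytoid dendritic list summed to 889 to 1253 CPM, with *Ccr9*, *Bst2* and *Tcf4* at 20 CPM or more and the defining *Siglech* at 0.0353, 0.0621, 0 and 0.177 CPM. Most of this sum was *Ccr9*, which is on the ST2+ ILC2 list too. The 5 ILCP genes summed to 108 to 224 CPM, with *Zbtb16*, *Tox* and *Tcf7* at 20 CPM or more in both experiments.

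Within experiment 1 the 3 hashtags gave like profiles. Over 7432 genes at 20 CPM or more, the coefficient of variation over the 3 hashtags had a median of 20.2% and a 90th percentile of 45.4%. Between experiments, 96.8% of the 6996 genes at 20 CPM or more in both agreed within 2-fold, a choice that leaves out genes low in either, with a median absolute log2 ratio of 0.26.

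Type 2 effector transcripts were sparse in these cells, while *Il4*, *Csf1* and *Bmp7* were at higher levels. *Il5* was at 0.582, 2.07, 5.73 and 4.07 CPM and *Il13*, the other classical ILC2 cytokine, at 1.22, 4.18, 19.1 and 3.41 CPM. Only *Il13* under A0309 was above 6 CPM. At least 1 *Il5* read was found in 4.17% of the cells of experiment 1 and 0.96% of experiment 2, or 0.556% and 0.57% at 6000 reads. For *Il13* the thinned shares were 1.67% and 0.45%. *Areg*, which encodes amphiregulin, had reads in 2.78% and 2.34% of cells and stood at 4.62, 14, 5.67 and 15.1 CPM. *Ifng*, the ILC1 cytokine, has no row in the table of experiment 1 and had reads in 0.03% of the cells of experiment 2.

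*Il4* was at 38.5, 59.8, 38.1 and 31.1 CPM, with reads in 19.2% and 10.5% of cells, or 7.78% and 6.27% after thinning. In LTi-like cells of the same libraries (*Ccr6*+ *Il1rl1*-negative, 3 and 40 cells with medians of 248548 and 32320 reads, used as the background for free RNA) the thinned *Il4* share was 0% in both experiments. For 40 cells a count of 0 allows a share of up to 7.5%, so at this depth the *Il4* shares are not separated from that background, and 3 cells set no limit. In the *Zbtb16*+ ST2-negative precursors the thinned share was 0% of 96 cells and 0.437% of 229. *Csf1*, the macrophage growth factor, was at 68.9, 50, 36.4 and 63.8 CPM and *Csf2*, which encodes GM-CSF, at 17.4, 32.2, 26.7 and 16.7 CPM. *Bmp7*, a TGF-β family ligand, was at 103, 134, 112 and 145 CPM, with thinned shares of 21.9% and 19.1% against 0% in the LTi-like cells.

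Of the 34 genes on the effector list, 24 were in the table of experiment 1 and 27 in that of experiment 2. In experiment 1, 12 of them had reads in at least 10% of the cells, and in experiment 2, 10 did. With every cell at 6000 reads these counts were 9 and 7. *Ltb*, which encodes lymphotoxin β, was the most widely detected, with reads in 98.9% and 86.1% of cells, or 87.8% and 78% after thinning, against 100% and 87.5% of thinned LTi-like cells.

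**Figure D1:**
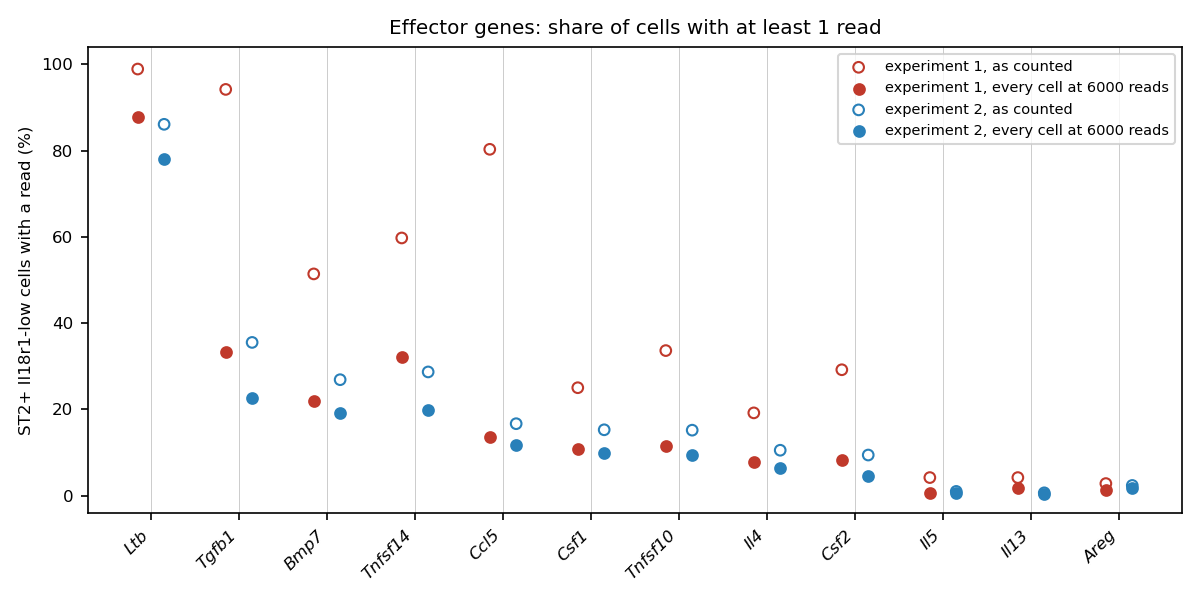
Share of ST2+ Il18r1-low cells with at least 1 read (vertical axis, percent) for 12 effector genes, in experiment 1 (red) and experiment 2 (blue), as counted (open) and with every cell thinned to 6000 reads (filled). The shares of *Il5*, *Il13* and *Areg* lie under 5% in every case, and the gap between the experiments narrows after thinning.

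Reads of *Il5* with *Il13*, or of *Il4* with *Il5*, were seldom found in the same cell. Of 15 cells with *Il5* reads in experiment 1, 0 had *Il13* reads, and of 32 such cells in experiment 2, 3 did (9.38%, against 0.545% of cells without *Il5* reads). *Csf2* reads were found in 5 of the 15 cells with *Il5* reads in experiment 1 (33.3%, against 29.0% of cells without). In experiment 2 they were found in 4 of 32 (12.5%, against 9.36%). The cells with *Il5* reads were more deeply sequenced in experiment 2, with a median of 56280 reads against 30340. *Il4* reads were likewise found in deeper cells, at a median of 428320 reads against 340140 in experiment 1, and 2 of 69 cells with *Il4* also had *Il5*, against 4.47% of cells without *Il4*. Only 2 cells of experiment 1 and 12 of experiment 2 had *Il5* at L of 1 or more, too few in experiment 1 for a sum, so cells with and without *Il5* were not tested against each other.

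The receptors of the alarmins and of the common γ-chain cytokines ranged widely in level. *Il7r*, which encodes the CD127 used in the sort, was at 1861, 1698, 1935 and 2104 CPM. *Il2ra*, the α chain of the IL-2 receptor (CD25), was at 592, 461, 621 and 603 CPM, while *Il2rb*, its signalling β chain, was at 16, 9.85, 24.8 and 17.7 CPM. Thinned shares were 61.9% and 57.9% of cells for *Il2ra* and 3.06% and 3.21% for *Il2rb*. *Il17rb*, the IL-25 receptor, was at 349, 398, 363 and 549 CPM and *Il9r*, the receptor for IL-9, at 63.2, 108, 78.8 and 126 CPM. *Il6st*, which encodes gp130, was at 122, 94.9, 159 and 179 CPM. *Tnfrsf25*, the receptor of TL1A, was at 153, 129.7, 141 and 126 CPM and *Crlf2*, the TSLP receptor chain, at 44.5, 75.6, 71.4 and 41.2 CPM. The thinned *Crlf2* shares were 12.2% and 5.52%, against 33.3% and 5% in LTi-like cells. *Il4ra*, the IL-4 receptor chain, was at 35.2, 10.8, 30.3 and 30 CPM and *Il21r*, the receptor of IL-21, at 32.8, 7.47, 11.1 and 9.17 CPM. For *Il2rb* and *Kit* the thinned share in LTi-like cells of experiment 2 was higher, at 17.5% and 52.5%, than in the ST2+ cells, at 3.21% and 3.69%.

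Lipid mediator receptors differed widely among themselves. *Cysltr1*, a receptor for cysteinyl leukotrienes, was at 355, 339.5, 337 and 359 CPM and *Ltb4r1*, the leukotriene B4 receptor, at 170.2, 213, 244 and 220.1 CPM. *Ptgir*, the prostacyclin receptor, was at 145, 139, 142 and 148 CPM. These levels lay close together over the 4 hashtags. *Ptgdr2*, which encodes CRTH2, was nearly silent, at 0, 0.0207, 0 and 0.257 CPM. The prostaglandin receptor genes *Ptgdr*, *Ptger1* and *Ptger3* were low too, at 0.335, 0.166, 0.167 and 0.132, at 0.424, 0.559, 0.312 and 0.265 and at 0.0706, 0.0207, 4.27 and 0.53 CPM. Of the other receptors of prostaglandin E2, *Ptger2* was at 43.2, 19.7, 47.1 and 53.7 CPM and *Ptger4* at 55.5, 97, 58 and 68.9 CPM. Of the enzymes, *Alox5*, which starts leukotriene synthesis, was at 138, 109.6, 126 and 281 CPM, with experiment 2 above all hashtags of experiment 1, and *Hpgds*, a prostaglandin D2 synthase, was at 57.5, 71, 55.2 and 49.1 CPM. *Alox5ap*, whose product activates the enzyme that *Alox5* encodes, was at 2.59, 0.331, 0.417 and 1.57 CPM, and *Ltc4s*, the leukotriene C4 synthase, had no reads in these cells of experiment 2 and has no row in the table of experiment 1. *Nmur1*, the neuromedin U receptor through which neurons activate ILC2s, was at 53, 55.9, 23.9 and 87.9 CPM, with thinned shares of 8.89% and 11.9% against 0% in LTi-like cells.

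Among homing genes, *Ccr9*, the gut-homing chemokine receptor, was at 1111, 885, 1089 and 755 CPM. *Cxcr6* was at 395, 482, 429 and 387 CPM and *Ccr2*, a receptor used for marrow exit by other leukocytes, at 604, 828, 631 and 673 CPM. *Itga4* and *Itgb7*, whose products form the LPAM-1 integrin of the sort, were at 538, 591, 538 and 912 and 578, 435, 571 and 522 CPM. *S1pr1*, the receptor that lets lymphocytes leave tissues, was at 1.62, 0.145, 0.312 and 0.956 CPM, and its thinned share was 0.278% and 0.27%. Of surface genes, *Icos*, a co-stimulatory receptor of ILC2s, was at 704, 728, 859.5 and 656 CPM and *Klrg1*, found on mature and activated ILC2s, at 27.5, 15, 11.7 and 31.5 CPM. *Pdcd1*, which encodes PD-1, was at 8.98, 0.931, 11.9 and 9.5 CPM.

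The cells were next compared with WT *Zbtb16*+ ST2-negative precursors of the same libraries (96 and 229 cells, L of *Il1rl1* below 1), to show which of these transcripts accompany the ILC2 state. Reads were summed per experiment and cell set and 4 sets were fitted together with edgeR's quasi-likelihood test with the experiment as a block. Of 18425 genes tested, 3 passed an adjusted p of 0.05, 0.0163% of the genes, and 1384 had an unadjusted p under 0.05. *Shisa5*, which encodes an endoplasmic reticulum protein, rose in the ST2+ cells (chr9:109038565-109057777, 1524, 1551, 1531 and 1468 CPM against 244, 272, 219 and 312.2, log2 fold 2.53 ± 0.14 (SE), adjusted p = 0.0183, 1.08e-14 to 0.0344 over 11 alternatives). *Gvin1*, a very large interferon-inducible GTPase with close copies beside it, rose as well (chr7:106156556-106215326, 549.6, 578, 716 and 1197 CPM against 56.9, 105, 82 and 189, log2 fold 2.86 ± 0.18 (SE), adjusted p = 0.0285, 4.65e-21 to 0.252 over 11 alternatives), and reads of its copies could be counted to it. *Tyrobp*, which encodes the signalling adaptor DAP12 of NK and myeloid receptors, fell (chr7:30413760-30417585, 6.02, 2.84, 2.02 and 2.83 CPM against 533, 665, 495 and 464, log2 fold -7.21 ± 0.39 (SE), adjusted p = 0.0183, 7.66e-55 to 0.0564 over 11 alternatives). The 7 NK and ILC1 markers summed to 256 and 82.5 CPM in the precursors of the 2 experiments against 14.3 and 11.3 in the ST2+ cells, and the 6 LTi and ILC3 markers to 275 and 402 against 32.3 and 21. *Eomes*, a defining NK factor, was at 56.3, 50.3, 264 and 34.5 CPM in the precursors. The part of these cells in the difference of *Tyrobp*, or of *Ccl5* and *Il2rb* below, was not tested.

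The number of calls depended on the fit. The cycling cells share the estimate of the spread, and their sum of experiment 1 held 6 cells. Without that set 366 genes passed, and with every cell thinned as well, 987 did. No gene of the lists passed in the fit of 4 sets, so the lists are given by their values and by how many genes had 4 sums that all lay above, or all below, those of the precursors. Over all genes tested this was so for 6.49% (above) and 7.2% (below). Without the cycling set, the listed genes that passed were 4 lipid and neuropeptide genes higher and 0 lower, 3 and 0 effector genes, 3 and 4 cytokine receptors, 2 and 7 transcription factors, 7 and 0 quiescence-linked genes, 6 and 0 immediate early genes, 3 and 5 surface genes, 1 and 2 homing genes, 1 and 1 survival genes, 1 and 0 genes each of G1 entry and of metabolism, 0 and 0 S and G2/M genes and 2 and 0 of the list of 4 candidate GATA3 targets with *Rnf128*, where 0.88% of all genes passed as higher and 0.95% as lower.

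All 5 genes of that last list had sums that lay above the precursors, with a median log2 fold of 4.40 against 0.05 over all genes. The 4 candidate targets were put forward by the study of these same cells and are no independent evidence of their direction. *Rnf128*, an E3 ubiquitin ligase also called GRAIL, was at 441, 436, 488 and 566 CPM against 1.33, 1.26, 1.16 and 44.9 CPM in the precursors. The precursors of experiment 2 were the highest of the precursor sums and still below every ST2+ sum (log2 fold 5.29 ± 1.39 (SE), adjusted p = 0.355, 4.63e-07 to 0.406 over 11 alternatives). *Ptpn13*, a protein tyrosine phosphatase, was at 173, 126, 189 and 217 against 0.976, 1.04, 1.23 and 21.6 CPM (log2 fold 4.72 ± 1.14 (SE), adjusted p = 0.317, 1.07e-05 to 0.359 over 11 alternatives). *Inpp4b*, a phosphoinositide phosphatase that lowers AKT signalling, was at 659, 777, 800.1 and 1162 against 21.7, 53, 22.2 and 132 CPM (log2 fold 3.80 ± 0.50 (SE), adjusted p = 0.158, 5.41e-09 to 0.175 over 11 alternatives). *Slc7a8*, an amino acid transporter, was at 143, 175, 227 and 157 against 5.28, 2.64, 0.725 and 23.2 CPM. *Cnot6l*, a deadenylase, had the smallest fold of the 5, at 871, 1005, 1048 and 1022 against 374, 376, 285 and 464 CPM (log2 fold 1.42 ± 0.23 (SE), adjusted p = 0.217, 1.82e-06 to 0.29 over 11 alternatives).

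Genes of lipid and neuropeptide receptors and of lipid mediator enzymes were next, with 10 of 22 tested genes above the precursors and 0 below (median log2 fold 1.95). *Cysltr1* was at 3.9, 2.15, 2.9 and 52.9 CPM in the precursors (log2 fold 4.28 ± 1.13 (SE), adjusted p = 0.355, 3.12e-06 to 0.389 over 11 alternatives). *Ltb4r1* was at 2.17, 1.41, 1.05 and 30.1 CPM there and *Ptgir* at 0.621, 4.97, 1.41 and 15.6 CPM. In each case the precursors of experiment 2 were the highest of their 4 sums. *Hpgds* was at 0.577, 1.86, 0.87 and 3.71 CPM in the precursors and *Nmur1* at 0.355, 3.41, 2.83 and 16.5 CPM, both below every ST2+ sum.

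Of 36 cytokine receptors tested, 9 lay above the precursors and 6 below. *Il2ra* was at 2.88, 8.35, 11.6 and 74 CPM in the precursors (log2 fold 4.20 ± 1.04 (SE), adjusted p = 0.33, 8.35e-07 to 0.335 over 11 alternatives). *Il9r* was at 24.9, 0.705, 0.87 and 18.4 CPM there and *Il6st* at 14.1, 13, 2.32 and 25.2 CPM. *Kit*, the stem cell factor receptor of early progenitors, lay below, at 47.5, 34.6, 4.71 and 22.9 CPM in the ST2+ cells against 294, 335, 256 and 235 CPM (log2 fold -3.25 ± 0.94 (SE), adjusted p = 0.415, 4.64e-06 to 0.474 over 11 alternatives). *Il1r1*, the IL-1 receptor, was at 0.318, 0.662, 0.0625 and 0.522 against 19.7, 10.4, 38.4 and 77 CPM. *Il2rb* was also lower in each hashtag, with 189.9, 236, 164 and 91.5 CPM in the precursors.

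Of 22 effector genes tested, 8 lay above the precursors and 1 below. *Il4* was at 4.08, 0.186, 0.145 and 1.65 CPM in the precursors (log2 fold 4.74 ± 1.02 (SE), adjusted p = 0.273, 3.69e-11 to 0.316 over 11 alternatives) and *Csf1* at 0.177, 0.742, 0.0725 and 0.756 CPM. *Ccl5*, a chemokine of cytotoxic and memory lymphocytes, was the gene below, at 162, 154, 96.9 and 77.4 against 1476, 1711, 1258 and 493 CPM (log2 fold -3.10 ± 0.85 (SE), adjusted p = 0.38, 1.25e-06 to 0.4 over 11 alternatives).

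**Figure D2:**
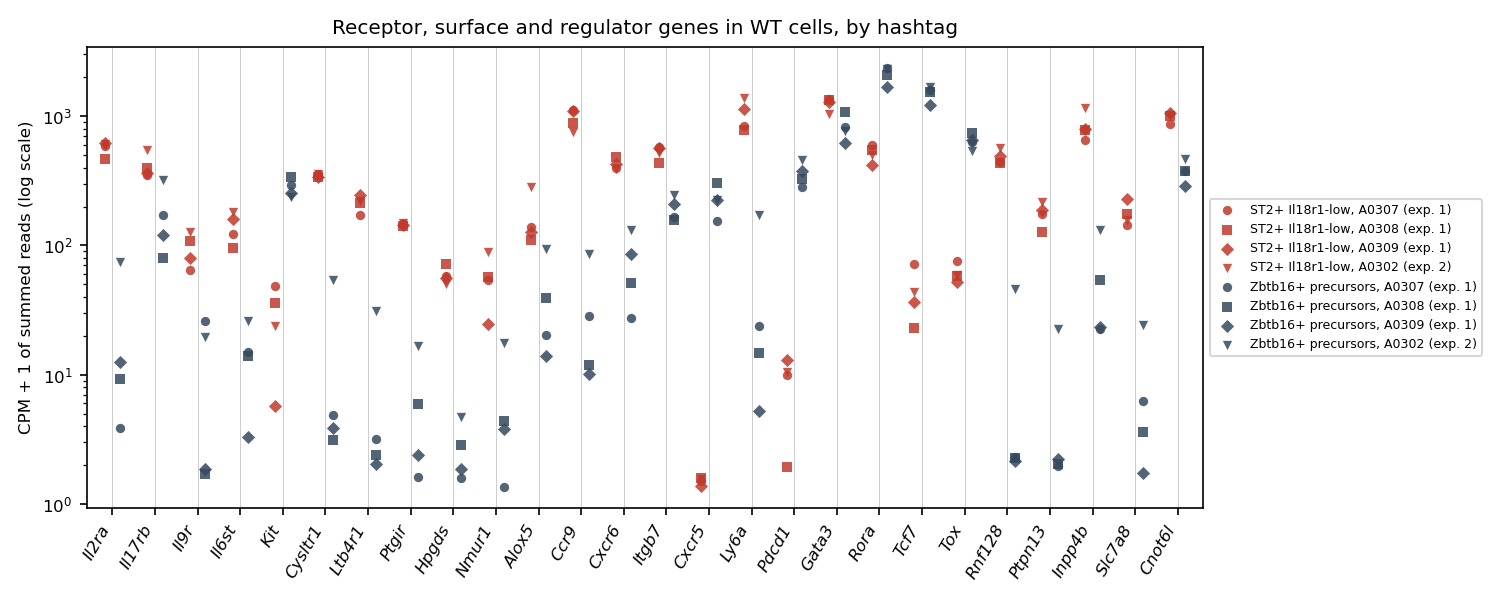
Levels of 26 genes as CPM + 1 of summed reads (vertical log axis) in ST2+ Il18r1-low cells (red) and *Zbtb16*+ precursors (dark blue), with a symbol for each of the 4 WT hashtags. The points of both sets lie apart for *Il2ra*, *Cysltr1*, *Ccr9*, *Rnf128*, *Cxcr5* and *Tcf7*, and the precursors of experiment 2 (triangles) lie above those of experiment 1 for most genes of the ST2+ cells.

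More transcription factors lay below the precursors than above, with 15 of 33 tested genes below, 4 above and the others overlapping (median log2 fold -0.86). *Tcf7*, which encodes TCF-1 of early innate lymphoid progenitors, was at 71.4, 21.9, 35.5 and 43 CPM against 1598, 1527, 1222 and 1688 CPM (log2 fold -5.10 ± 0.76 (SE), adjusted p = 0.188, 2.9e-12 to 0.188 over 11 alternatives). *Tox*, needed for innate lymphoid precursors, was at 74.4, 57.4, 50.9 and 57.6 against 628, 733, 653 and 539 CPM (log2 fold -3.24 ± 0.30 (SE), adjusted p = 0.0856, 6.06e-12 to 0.114 over 11 alternatives). *Tox2* was at 18.6, 2.86, 2.33 and 2.6 against 467, 611, 385 and 516 CPM. *Rora*, an ILC2 regulator, was at 597, 546, 419 and 499 against 2357, 2066, 1667 and 2313 CPM (log2 fold -1.99 ± 0.20 (SE), adjusted p = 0.0856, 1.54e-08 to 0.114 over 11 alternatives), so that the ST2+ cells had the lower level of it in every sum. *Gata3* was at 827, 1076, 624 and 762 CPM in the precursors (log2 fold 0.63 ± 0.17 (SE), adjusted p = 0.364, 0.00155 to 0.994 over 11 alternatives), lower than in the ST2+ cells under each of the 4 hashtags, although the groups overlapped. *Gfi1*, a partner of GATA3 in ILC2s, was at 116, 68.5, 79.9 and 106 against 13.6, 12, 16.1 and 20.6 CPM and *Pparg*, a lipid-sensing receptor of ILC2s, at 81.1, 56.5, 55.3 and 82.5 against 0.71, 0.371, 0.326 and 15.1 CPM. *Bcl11b*, which marks ILC2 commitment, was alike, at 328, 348, 341 and 319.8 against 258, 365, 499 and 322 CPM, and the groups overlapped.

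Homing genes went both ways, with 6 of 27 above the precursors and 9 below. *Ccr9* was at 27.7, 10.9, 9.2 and 85.1 CPM in the precursors (log2 fold 4.31 ± 0.86 (SE), adjusted p = 0.263, 2.67e-08 to 0.263 over 11 alternatives) and *Cxcr6* at 26.6, 50.7, 85.1 and 131 CPM. The receptors for lymphoid tissue chemokines lay below, *Cxcr5* at 0.512, 0.579, 0.375 and 0.574 against 153, 304, 224 and 223 CPM (log2 fold -8.68 ± 0.99 (SE), adjusted p = 0.117, 2.12e-23 to 0.117 over 11 alternatives) and *Ccr7* at 0.229, 0.29, 0.167 and 0.64 against 54.3, 33.9, 48.2 and 94.5 CPM. Of 24 surface genes, 6 lay above and 7 below. *Ly6a*, which encodes Sca-1, was at 841, 781, 1142 and 1371 against 22.8, 13.7, 4.24 and 171 CPM and *Pdcd1* at 284, 327, 375 and 453 CPM in the precursors, above every ST2+ sum.

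The cells were then examined for signs of quiescence. Of 35 genes of the S and G2/M phases, a list without *Mki67*, 12 were at 20 CPM or more in either experiment. Among these were *Pcna* at 95.8, 81.9, 71.3 and 118 CPM, *Mcm6* at 55.1, 63, 34.8 and 64.1 CPM and *Hmgb2* at 512, 503, 476 and 135 CPM, genes of DNA replication or chromatin. *Top2a*, a topoisomerase of dividing cells, was at 14.2, 25.3, 6.29 and 10.4 CPM and *Ccna2*, which encodes cyclin A2, at 0.176, 0.103, 0.167 and 0.566 CPM. Summed over the 35 genes of the list with every cell at 6000 reads, the median cell had 6.67 reads per 10000 in experiment 1 and 3.33 in experiment 2. The 90th percentile was 18.3 in both. The *Zbtb16*+ precursors had medians of 6.67 and 5 and the same 90th percentile of 18.3, close to the values of the ST2+ cells. The cycling ST2+ cells (*Mki67* L of 1 or more, 6 and 26 cells) had medians of 18.3 and 132.5. In experiment 2, 0 of 3332 ST2+ Il18r1-low cells reached the cycling median. In experiment 1, 32 of 360 did. The cycling cells were chosen by *Mki67*, to which these genes are tied, so this is a description.

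Against the cycling cells 0 of 18426 genes passed edgeR's adjusted p of 0.05 (0% of the genes), 2653 had an unadjusted p under 0.05, DESeq2 called 1544 and edgeR on thinned cells called 170. Sums of both experiments lay above those of the cycling cells for 37% of all genes and below for 10.9%, and the median log2 fold over all genes was 0.48. Of 34 tested S and G2/M genes 16 lay below and 0 above, with a median log2 fold of -5.08, and on thinned cells 15 passed the test, all lower, against 0.767% of all genes. These genes are tied to *Mki67*, which set the groups apart. *Ube2c*, a mitotic ubiquitin-conjugating enzyme, was at 1.32 and 2.49 CPM in the 2 experiments against 173 and 649 (log2 fold -7.60 ± 0.55 (SE), adjusted p = 0.0889, 2.12e-45 to 0.113 over 8 alternatives). Among genes not of the cycle, *Rnf128* was at 454 and 566 CPM against 85.7 and 85.9 in the cycling cells (log2 fold 2.44 ± 1.18 (SE), adjusted p = 0.397, 0.0399 to 0.59 over 8 alternatives) and *Bcl2*, the survival factor, at 209 and 259.6 against 4.58 and 47.7 (log2 fold 3.55 ± 0.80 (SE), adjusted p = 0.192, 0.000841 to 0.323 over 8 alternatives). *Tox* was at 61.7 and 57.6 against 409.9 and 218 CPM.

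Of 29 genes linked to quiescence, 11 lay above the precursors and 2 below (median log2 fold 0.33), 7 above and 4 below the cycling cells, and 1 above and 1 below the double-positive *Il18r1*+ *Il1rl1*+ cells. Over all genes the shares were 37% above and 10.9% below the cycling cells, and 3.62% and 1.53% for the double-positive cells, so the counts against these 2 sets are no result about the list. The shares over all genes against the precursors were 6.49% above and 7.2% below. Their summed reads per 10000 in thinned cells had a median of 65 in experiment 1 and 78.3 in experiment 2, against 33.3 and 40 in the precursors and 56.7 and 68.3 in the double-positive cells. The cycling cells had medians of 85.8 and 50.8, the former above the ST2+ Il18r1-low cells. *Zfp36l2*, an mRNA-destabilizing protein that restrains the cell cycle of lymphocytes, was at 1081, 939.9, 1646 and 2123 CPM against 489.9, 366, 417 and 633 CPM (log2 fold 1.74 ± 0.39 (SE), adjusted p = 0.289, 1.57e-07 to 0.301 over 11 alternatives). *Txnip*, a thioredoxin inhibitor that limits glucose uptake, was at 919, 1160.4, 936 and 1289.7 against 326, 264, 195 and 456 CPM (log2 fold 1.79 ± 0.38 (SE), adjusted p = 0.271, 5.33e-07 to 0.271 over 11 alternatives). *Klf3* was at 133, 118, 97.6 and 223 against 24.8, 10.9, 5.8 and 35.2 CPM and *Tsc22d3*, the glucocorticoid-induced leucine zipper, at 50.9, 47.6, 63.9 and 124 against 1.06, 2.3, 1.49 and 7.15 CPM. The CDK inhibitor genes did not follow. *Cdkn1b*, which encodes p27, was at 101, 176, 137 and 136 CPM against 105, 110.4, 129 and 121 CPM, and *Cdkn1a*, which encodes p21, was at 2.17, 4.76, 1.54 and 5.15 CPM against 6.12, 89.5, 1.05 and 39.8 CPM. Of 14 genes of G1 entry, 3 lay above and 2 below. *Ccnd2*, which encodes the G1 cyclin D2, was at 409.6, 543, 514 and 655 against 119, 149, 106 and 168 CPM (log2 fold 2.06 ± 0.34 (SE), adjusted p = 0.217, 1.84e-07 to 0.217 over 11 alternatives), above the precursors in every sum. *Bcl2* was at 213, 195, 217 and 259.6 CPM against 1519.6, 1669.5, 1613 and 1654 CPM. Of 17 genes of metabolism, 3 lay above and 4 below, and of 11 of survival, 1 and 1.

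**Figure D3:**
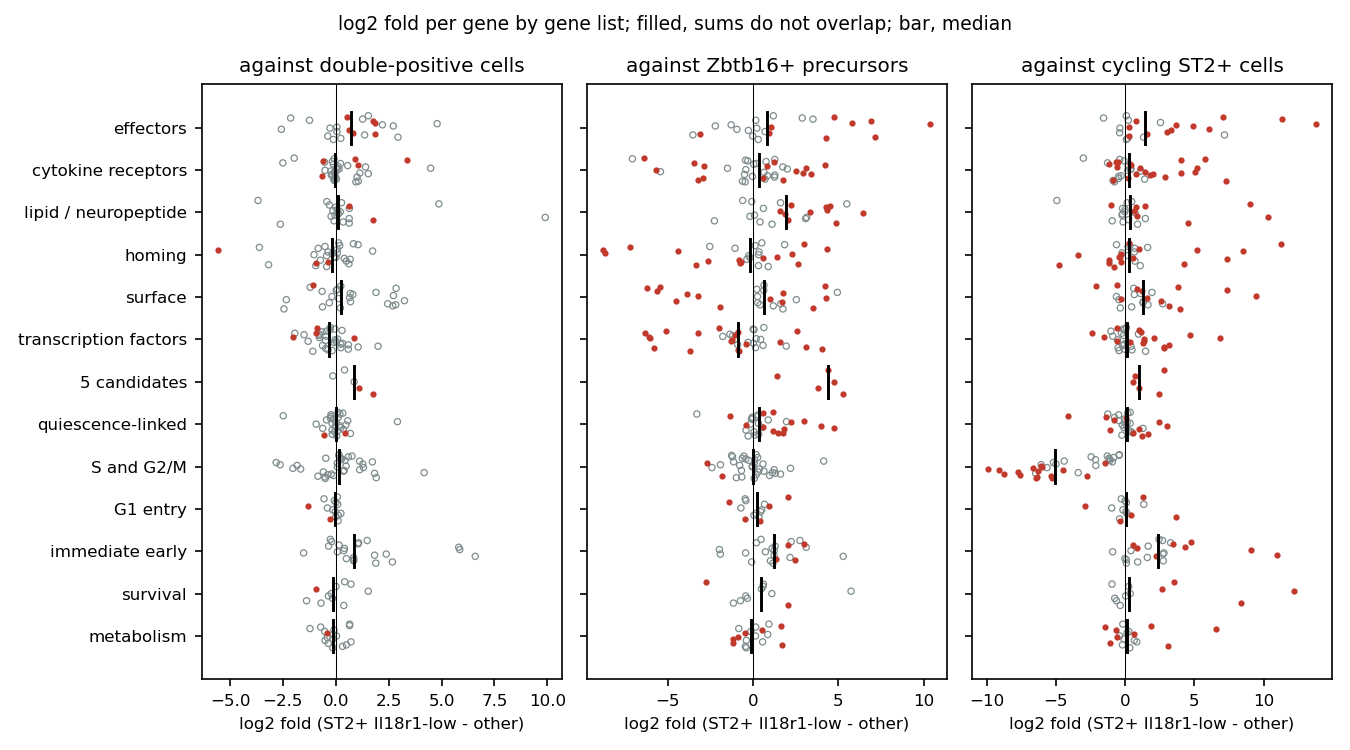
Log2 fold of each listed gene (horizontal axis, ST2+ Il18r1-low cells minus the other set) by gene list, against double-positive cells, *Zbtb16*+ precursors and cycling ST2+ cells. Filled points mark genes whose sums did not overlap (4 sums a set, or 2 for the cycling cells) and the bar is the list's median, which for S and G2/M genes is -5.08 against the cycling cells and 0.02 against the precursors.

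The nearest cells were the WT *Il18r1*+ *Il1rl1*+ (double-positive) cells, which met the same rule but for *Il18r1* at L of 1 or more (58 and 183 cells). No gene passed edgeR's adjusted p of 0.05 among 18426 (0% of the genes), 550 had an unadjusted p under 0.05 and DESeq2 called 89. Sums lay above those of the double-positive cells for 3.62% of all genes and below for 1.53%. Of the 22 effector genes tested 6 lay above and 0 below, of 36 cytokine receptors 3 and 2, of 22 lipid and neuropeptide genes 2 and 0, of 34 transcription factors 1 and 3, and of the 4 candidate targets with *Rnf128* 2 and 0. *Il2ra* was at 175, 209.6, 299.9 and 376 CPM in the double-positive cells, below every sum of the Il18r1-low cells (log2 fold 1.03 ± 0.90 (SE), adjusted p = 1, 0.381 to 1 over 11 alternatives). *Rnf128* was at 169, 34.3, 115 and 253 CPM there (log2 fold 1.75 ± 1.15 (SE), adjusted p = 1, 0.136 to 1 over 11 alternatives) and *Inpp4b* at 358, 282, 332 and 604 CPM (log2 fold 1.09 ± 0.45 (SE), adjusted p = 1, 0.0814 to 1 over 11 alternatives). *Csf1* was at 0.541, 7.01, 16.2 and 32.9 CPM and *Ccl5* at 4.78, 23.4, 3.91 and 47 CPM in the double-positive cells, both below the Il18r1-low cells.

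In the other direction, *Rora* was at 879.6, 1178, 774 and 952 CPM in the double-positive cells (log2 fold -0.89 ± 0.19 (SE), adjusted p = 1, 0.0246 to 1 over 11 alternatives), which placed the Il18r1-low cells lowest of the 3 resting sets for *Rora*. *Icos* was at 1278, 2182, 859.6 and 1539.7 CPM, and the sum of A0309 was the nearest to the Il18r1-low cells (log2 fold -1.09 ± 0.34 (SE), adjusted p = 1, 0.171 to 1 over 11 alternatives). *Tox* was at 114, 132, 134 and 103 CPM in the double-positive cells. *Il5* was at 37.6, 0, 17.8 and 8.71 CPM there and overlapped the Il18r1-low cells. The depths were alike but not equal, with a median of 481592 and 38179 reads in the double-positive cells.

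Among the gene lists, the Il18r1-low cells of both experiments differed most in immediate early genes. Of 7989 genes at 20 CPM or more in either experiment, 0.789% were at least 2-fold above the highest hashtag of experiment 1 in experiment 2, and 2.23% were at least 2-fold below the lowest. Of the 16 immediate early and stress genes at that level, 10 were at least 2-fold above and 0 below, with a median log2 ratio of 2.04. *Fos* was at 2.67, 2.77, 21.3 and 543 CPM, *Egr1* at 2.91, 11.1, 7.83 and 114 CPM and *Fosb* at 11.5, 0.103, 14.1 and 181 CPM, all AP-1 or early growth response factors. *Jun* was at 70.2, 119.9, 109.8 and 404 CPM and *Hspa1a*, a heat shock protein gene, at 0, 0.0207, 0.187 and 30 CPM. In each of these the value of experiment 2 lay outside the 3 of experiment 1. By the same measure 0 of 22 cytokine receptors were above and 0 below, near the share over all genes. The MHC class II genes *H2-Aa*, *H2-Ab1* and *Cd74* were also higher in experiment 2, *Cd74* at 33.9, 27.7, 69.8 and 226 CPM, and *Hmgb2* was lower. The experiment had 1 WT hashtag and another sorter, so no test was made. By the summed immediate early reads of each thinned cell, the ST2+ Il18r1-low cells had the highest median of the 4 sets in each experiment, with 18.3 and 45 reads per 10000 against 5 and 15 in the precursors. Against the precursors, *Junb* was at 388, 549, 418 and 946 CPM compared with 76, 52.4, 36.1 and 163 CPM (log2 fold 2.96 ± 1.15 (SE), adjusted p = 0.634, 2.8e-07 to 0.999 over 11 alternatives).

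**Figure D4:**
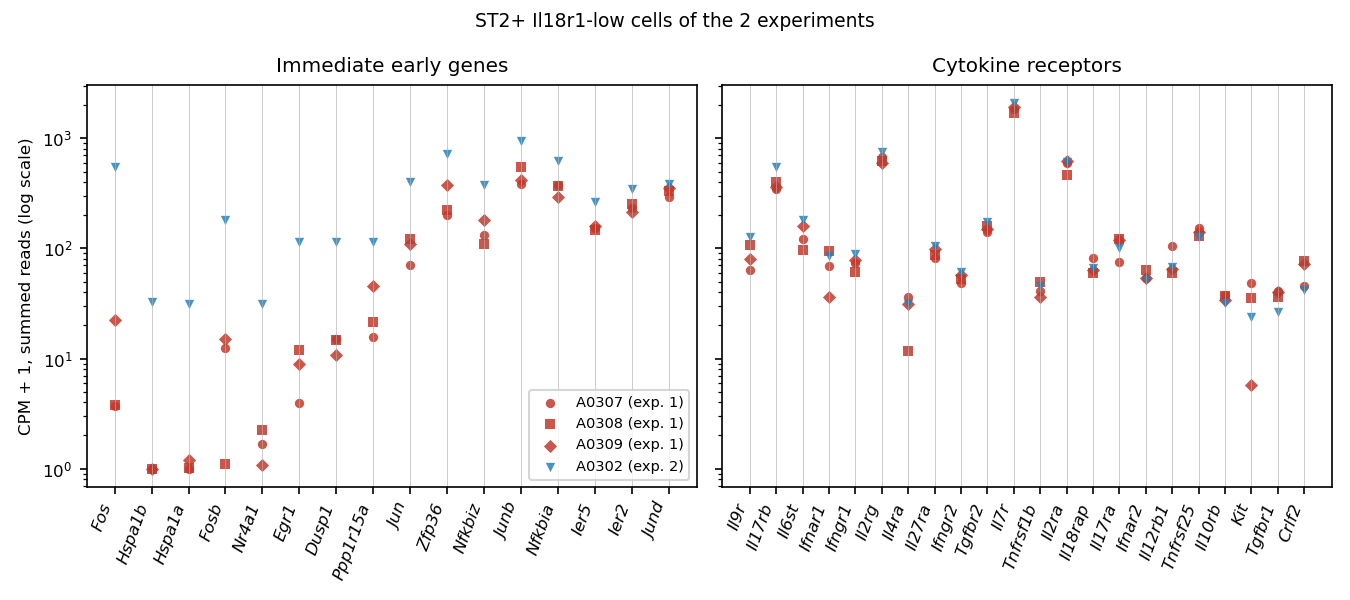
Levels (CPM + 1, vertical log axis) of immediate early genes (left) and cytokine receptors (right) in ST2+ Il18r1-low cells, with the 3 hashtags of experiment 1 in red and experiment 2 in blue. The blue points lie at least 2-fold above the red for 10 of 16 immediate early genes and for 0 of the 22 receptors.

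Variation among the cells was measured, for each gene, as the squared coefficient of variation of its reads per 10000 over the cells, divided by the running median of genes of like mean. Of 3372 genes, 2 had a ratio of 2 or more in both experiments, *Nfkbia* and *Ly6a*. *Nfkbia* (chr12:55489410-55492647), the inhibitor and target of NF-κB, had ratios of 3.79 and 2.48. The 10% of cells highest in it held 59.9% and 60.7% of its summed level. *Ly6a* had ratios of 2.14 and 2.31, with reads in 96.7% and 78.8% of cells. The other genes among the 15 highest were *Gimap3*, *Zfp36l2*, *Hsp90ab1*, *Jun*, *H2-Q7*, *Stab2*, *Zfp36*, *Trgc1*, *Icos*, *Il7r*, *Txnip*, *Ccr9* and *Ddx54*, of which *H2-Q7* and *Trgc1* have near-identical copies and are uncertain. *Ccr9* had a ratio of 2.9 in experiment 1 and 1.52 in experiment 2. With cells thinned to 6000 reads, 13 of these 15 genes were again among the 15 highest, and on the ln scale 8 were, with 14 among the 50 highest. Reads are not molecules here, so amplification adds to these ratios.

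**Figure D5:**
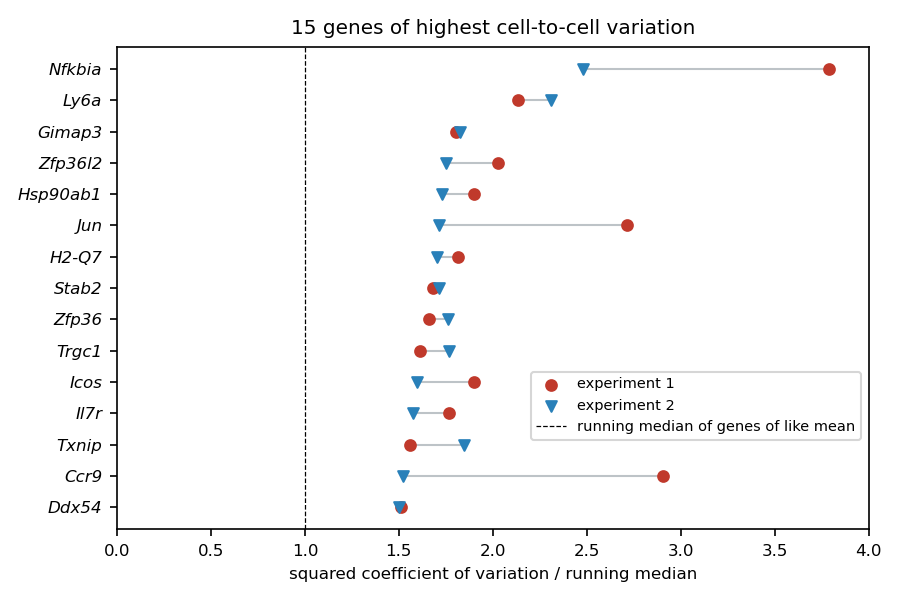
Variation ratio (horizontal axis, squared coefficient of variation over the running median of genes of like mean) of the 15 highest genes in ST2+ Il18r1-low cells, for experiment 1 (circles) and experiment 2 (triangles). All points lie right of 1, the median of like genes, and *Nfkbia* and *Ly6a* lie above 2 in both experiments.

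Rank correlations between genes over the cells were weak. Over 78 listed genes, which did not include all of the variable ones, and 3003 pairs, 0 pairs had a Spearman correlation of 0.2 or more in both experiments. Ranked by the lower of its values in the 2 experiments, the highest pair was *Ltb* with *Nfkbia*, at 0.141 over 360 cells and 0.132 over 3332 thinned cells, as a description only, since all cells share library and depth and counts at 6000 reads are sparse.

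The cells were also split by *Il2ra*. L was at least 1 in 215 of 360 cells (59.7%) and 1837 of 3332 (55.1%). Cells above the limit were more deeply sequenced, with medians of 399620 against 327550 reads and 35212 against 26664. No gene of 19651 passed edgeR's adjusted p of 0.05 (0% of the genes), 376 had an unadjusted p under 0.05 and DESeq2 called 10. Sums did not overlap for 0.992% of genes, higher with *Il2ra*, and 0.733%, lower. Of the 13 lists, those with such a gene were the effectors (1 of 22, *Areg*, lower), lipid and neuropeptide genes (1 of 23, *Cysltr1*, higher), transcription factors (1 of 34, *Ikzf3*, lower) and metabolism (1 of 18, *Hk1*, lower). These counts are near the shares over all genes and are no result about the lists. *Areg* was at 0, 9.58, 2.21 and 11 CPM in cells with *Il2ra* against 13, 22.1, 13 and 21.9 in cells without (log2 fold -1.55 ± 0.47 (SE), adjusted p = 0.988, 0.287 to 1 over 9 alternatives). *Cysltr1* was at 420.4, 372, 381 and 377 against 238, 279, 242 and 328 CPM (log2 fold 0.42 ± 0.13 (SE), adjusted p = 0.988, 0.908 to 1 over 9 alternatives).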

How the data were processed

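Single-cell TAS-Seq of sorted αLP gave 1 mRNA and 1 hashtag library per experiment. The deposited files are counts: each value is the number of reads of a gene in a cell, and reads were not collapsed to molecules. The authors trimmed adapters with Cutadapt, aligned to GRCm38 with Bowtie2 and counted reads. No gene filter or normalization had been applied to these counts, and the hashtag of each cell is in its column name. Cells with mitochondrial reads above 10% or reads below the study's knee-plot limits were left out. Reads were summed per experiment and cell set, and tested with edgeR 4.0.16 in R 4.3.3 (TMM, filterByExpr, quasi-likelihood test, experiment as block, Benjamini-Hochberg adjustment, genes of the gates left out). CPM is a gene's share of the summed reads, times 1000000. Folds are the fitted log2 values. Doublets were not called again. All cells had their own hashtag at least 2-fold above the next. In all, 7 cell barcodes were shared between experiments, where 6.80 were expected by chance. Alternatives included DESeq2 1.42.0, thinning to 6000 reads, other gate limits, sums per hashtag, and leaving out an experiment or, chosen after seeing the data, the cycling cells. The scripts' fits were tested on simulated data. Named genes were those of lists, the 10 largest calls in each direction per comparison at 20 CPM or more with the same direction in both experiments, and the 15 most variable genes. Some genes of the lists enter the counts but are not reported here. The members and lists were chosen with earlier results of these data known. Positions are from the GENCODE annotation of GRCm38. Pairing by number comes from the libraries themselves, since compared sets shared a library.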

Additional observations from a re-analysis of the deposited data

Results flagged for a closer look

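In experiment 2, 13 of 1447 cells of hashtag A0303, which entered no comparison here, met the same 5-gene rule (0.898%, exact 95% interval 0.479 to 1.53%). The share for hashtag A0302 was 54.8%. The cells of A0303 are described here because they lie outside every comparison. The hashtag label names A0303 beside A0302 under WT, while the genotype label of the library names both WT and G3SEKO, so the cells of A0303 were assigned to neither group. In experiment 1, 0 of 63 cells of the G3SEKO hashtags met the rule.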

How the results depend on the processing

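The counts of genes past an adjusted p of 0.05 depended on the fit. Against the *Zbtb16*+ precursors 3 genes passed with edgeR, and 735 passed with DESeq2, 8 without the low-count filter, 571 with cells thinned, 22 with gate limits at 0.5, 55 at 1.5, 366 without the cycling cells and 987 with both that and thinning. Leaving out experiment 2 gave 244. Against the double-positive cells 0 passed with edgeR, 89 with DESeq2, 4 with cells thinned and 15 with thinning and without the cycling cells. Against the cycling cells 0 passed with edgeR, 1544 with DESeq2, 170 with cells thinned and 12 at gate limits of 0.5. The *Il2ra* split gave 10 calls with DESeq2 and 0 with edgeR under its alternatives. The cause of these changes was not tested.

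Paired by hashtag, sums per hashtag with a replicate block called 637 genes against the precursors, 54 against the cycling cells and 0 against the double-positive cells. The cycling cells of experiment 1 numbered 1, 2 and 3 under A0307, A0308 and A0309, fewer than the 5 cells required for a sum. Only A0302, with 26 cells, gave a cycling sum, so that set was unpaired in experiment 1 and had no spread of its own. The 54 calls are thus no result about the cycling cells. The adjusted p ranges given for that comparison include this fit. Without the replicate block of the experiment, 2 passed against the precursors, where *Gvin1* lost its call (adjusted p = 0.252), and 0 in the other comparisons. *Gvin1* also lost its call at gate limits of 0.5 (adjusted p = 0.107), and *Tyrobp* without experiment 2 (adjusted p = 0.0564). *Shisa5* passed under all 11 tested alternatives.

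The share of cells meeting the rule moved from 48.8% to 44.8% at gate limits of 1.5 and 42.9% when gated after thinning in experiment 1, and from 54.8% to 61.3%, 46.6% and 48.5% at limits of 0.5, of 1.5 and after thinning in experiment 2. Genes with a variation ratio of 2 or more numbered 2, then 1 with cells thinned and 0 on the ln scale. Of the named genes' log2 values, 0 changed sign under an alternative. Without experiment 1, 1 sum per set was left, so only ratios were computed. The cycling set has no value without experiment 2, and the *Il5* split could not be fitted. Depth in experiment 2 limits what a share of cells without a read can show.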
